A study of Equus caballus with 4 samples.

Results

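The genes described here are 47 genes of DNA replication and nucleotide supply, chosen by symbol. They were looked up by gene name among 43603 probes of a horse array, which carry 15084 gene names in all. A probe was found for 43 of the 47 genes, 77 probes together, and 42 genes with 76 probes were bright enough to be tested. *ORC1*, *POLA1*, *PRIM2* and *DNMT1* had no probe under these symbols and were not analysed here, and *CCNE2* was too dim. Messenger RNA came from equine satellite cells, the stem cells of skeletal muscle, isolated from *semitendinosus* muscle of colts and taken on day 3 of differentiation. HMB-treated cells had received HMB (β-hydroxy-β-methylbutyrate), which is made in the body from leucine, for 24 h, and control cells had the same differentiation medium without it. The labels give the dose as 50 µg with no volume, while the methods give it in micromolar units. Each of 4 two-colour arrays, all on 1 slide, held HMB-treated cells in Cy5 and control cells in Cy3, *n* 4. The dyes were never exchanged, so that any preference of a probe for 1 dye is part of its ratio. Which colts were on which array is not stated in the sources used here, so that the p-values below measure the spread between these arrays.

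Before a cell copies its genome, origin recognition proteins load a ring-shaped MCM helicase onto DNA, and cyclin-dependent and DBF4-dependent kinases later switch that helicase on. Polymerases, a sliding clamp and its loader then copy the strands, while ribonucleotide reductase and thymidylate enzymes supply the deoxynucleotides, and E2F factors drive many of these genes at entry into S phase. Muscle precursors divide as myoblasts and leave the cell cycle as they differentiate into myotubes, when genes of this kind are usually turned down.

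Of the 42 tested genes, 9 were higher in HMB-treated cells and 0 were lower at a limma adjusted p of at most 0.05, adjusted over all tested probes. They were *RFC3*, *RFC4*, *MCM5*, *POLA2*, *GINS1*, *MCM10*, *MCM7*, *POLD1* and *MCM6*, with mean log2 ratios from 0.56 down to 0.29. The share past the threshold, 21.4%, was close to the 22.6% of all 9858 tested genes that passed in either direction, while 11.4% of all genes passed as higher and 11.2% as lower. At an unadjusted p under 0.05 there were 25 of the 42 genes, and 0 of these were lower, against 3778 of the 9858 genes, 1709 of them lower. The mean ratio was above 0 in 42 of 42 genes, but in 41 with normexp background correction and loess, where *E2F2* was below 0, and in 40 without lowess, where *E2F2* and *CCNE1* were below 0. Of all tested genes, 54.6% had a mean above 0. The median log2 ratio was 0.28 over the 42 genes and 0.026 over all tested genes. Without array 1 or array 4, 39 of the 42 means were above 0, with *E2F2* and *CCNE1* below 0 in both cases, *ORC2* without array 1 and *TYMS* without array 4. All 42 genes were well above background in both dyes on all 4 arrays. As these are bulk cells, a change in the number of cells of a type and a change in the RNA per cell cannot be told apart.

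The arrays did not carry this difference equally. Over the 42 genes the median log2 ratio was 0.28 on array 1, 0.26 on array 2, 0.018 on array 3 and 0.55 on array 4. Over all tested genes the medians were 0.042, 0.016, 0.023 and -0.0033 in the same order. Array 3 was the lowest of the 4 in 38 of the 42 genes and array 4 the highest in 32, against 1915 and 2783 of 9854 genes in all. Ratios above 0 were found in 41, 39, 24 and 41 genes on arrays 1 to 4, and 22 genes were above 0 on all 4. Among all tested genes these counts were 5544, 5206, 5321 and 4901, and 2501 were above 0 on all 4.

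**Figure D1:**
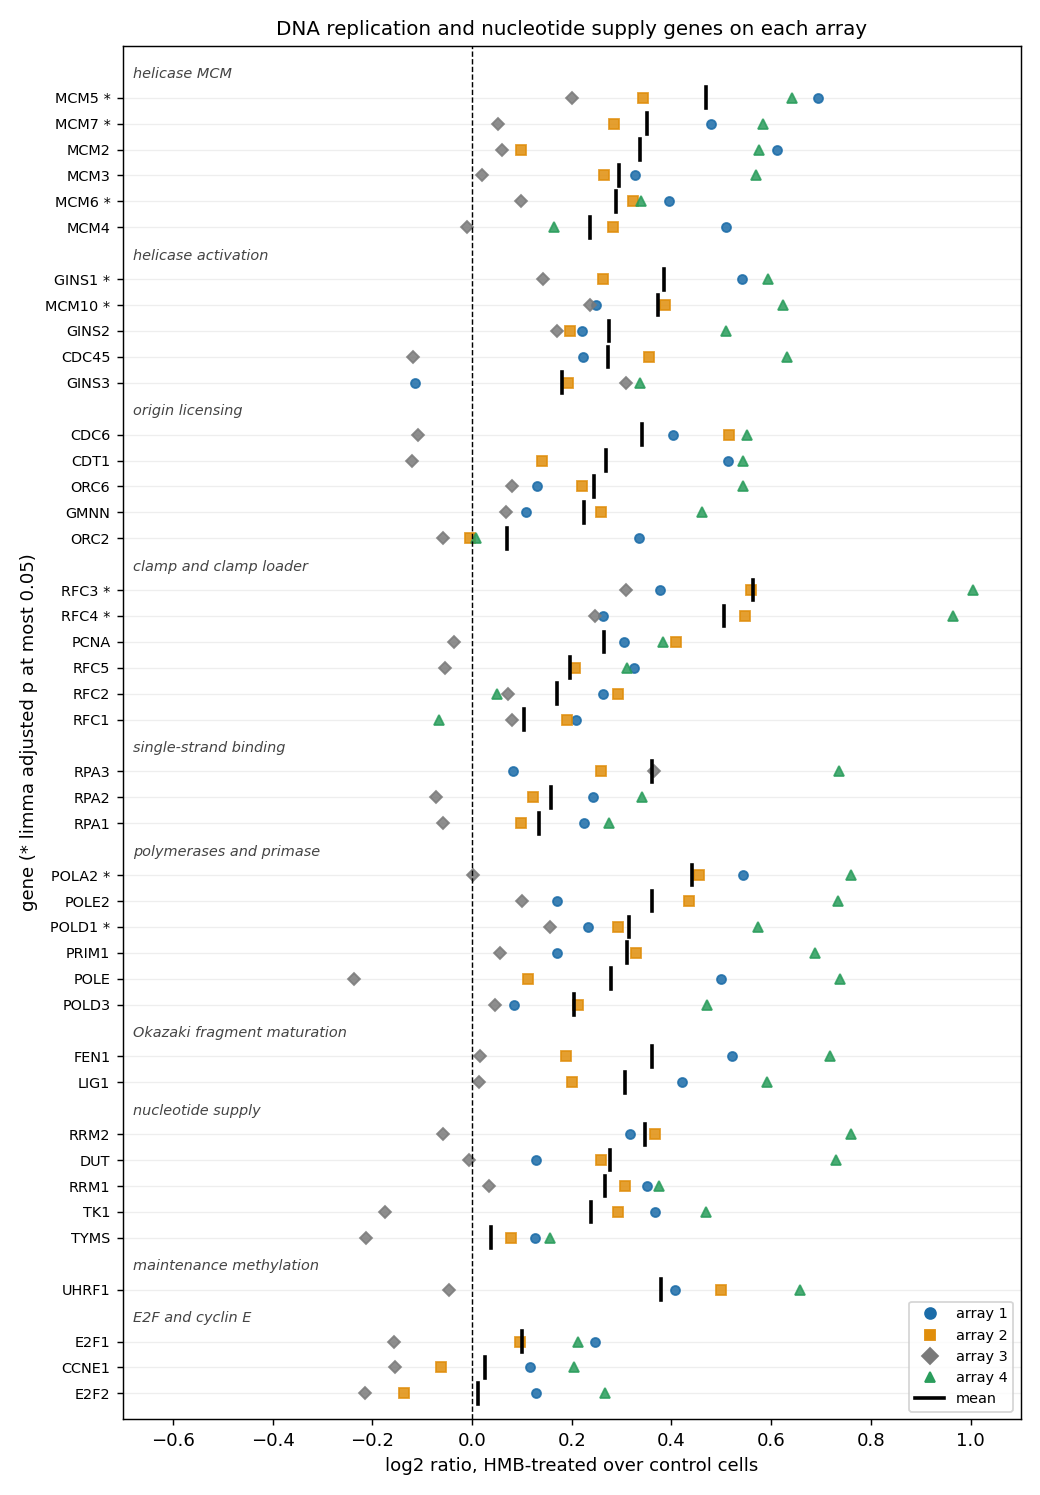
Log2 ratio of HMB-treated over control cells on each of the 4 arrays (x axis) for the 42 tested genes, grouped by role (y axis), with the mean as a black bar and an asterisk at the 9 genes with a limma adjusted p of at most 0.05. The grey diamonds of array 3 are the lowest point in 38 genes, and the means of all 42 lie above the dashed line at 0, which *E2F2* and *CCNE1* cross under another normalisation.

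The MCM helicase is the ring that unwinds DNA ahead of the polymerases, and 3 of its 6 subunits passed the test. *MCM5* had log2 ratios of 0.69, 0.34, 0.20 and 0.64 on arrays 1 to 4, a mean of 0.47 ± 0.24 (SD, *n* 4) or 1.38-fold, limma adjusted p 0.0212. *MCM7* had 0.48, 0.28, 0.051 and 0.58, with a mean of 0.35 ± 0.23 and an adjusted p of 0.0482. *MCM6* had 0.39, 0.32, 0.098 and 0.34, with a mean of 0.29 ± 0.13 and an adjusted p of 0.0346. All 3 rose, and in each array 3 stood below the others. *MCM4*, the lowest of the ring, had 0.51, 0.28, -0.010 and 0.17 and did not pass, adjusted p 0.117. *MCM2* and *MCM3*, with means of 0.34 and 0.29, did not pass either, at adjusted p 0.0848 and 0.0714. The calls were not stable to the loss of 1 array. Without array 1, 2 or 4 the adjusted p was 0.0597, 0.0574 and 0.0574 for *MCM5* and 0.125, 0.124 and 0.112 for *MCM7*. For *MCM6* it was 0.0831, 0.142, 0.0529 and 0.0758 without arrays 1, 2, 3 and 4.

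The probe that stood for *MCM6* passed and its neighbour did not, which is why both are shown, each 5′ to 3′. They lie end to end on the minus strand, at chr18:8171248-8171307 and chr18:8171308-8171367 of the EquCab1 build, in the transcript ENSECAT00000009445. Mean log2 ratios were 0.29 ± 0.13 and 0.19 ± 0.12 (SD, *n* 4), with limma adjusted p 0.0346 and 0.106.
MCM6 passing probe: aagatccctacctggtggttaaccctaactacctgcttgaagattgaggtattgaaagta
MCM6 neighbouring probe: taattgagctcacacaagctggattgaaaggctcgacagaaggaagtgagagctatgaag

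Before the helicase can be used it is loaded at origins, and none of the 5 tested licensing genes passed. At an unadjusted limma p under 0.05 there were 3 of the 5, against 3778 of 9858 genes in all. *CDC6*, an ATPase that helps to load the ring, had the highest mean, with 0.40, 0.52, -0.11 and 0.55 on arrays 1 to 4, a mean of 0.34 ± 0.31 and a limma adjusted p of 0.086. Array 3 alone was below 0. *ORC2*, a subunit of the origin recognition complex, had the lowest mean, with 0.33, -0.0051, -0.058 and 0.0084, where array 1 stood well above the other arrays, adjusted p 0.574. Between them lay *CDT1*, which brings the ring to the origin, *ORC6*, another subunit of the recognition complex, and *GMNN*, geminin, which holds *CDT1* back. Their means were 0.27, 0.24 and 0.22, at adjusted p of 0.161, 0.102 and 0.0999. Without array 3, *CDC6* passed, adjusted p 0.0269, but not without array 1, 2 or 4, at 0.187, 0.257 and 0.21.

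Both probes of *ORC2* are printed because their mean ratios differ in sign, the single such case among these genes. The probe that stood for the gene lies at chrUn:301563852-301563911 (EquCab1, minus strand) and had a mean of 0.070 ± 0.18. The other spans 2119 bases of the genome with its 60 bases, chrUn:301563912-301566030, and had a mean of -0.044 ± 0.097. Neither passed, at limma adjusted p 0.574 and 0.659, and the difference between the probes was not tested.
ORC2 probe used: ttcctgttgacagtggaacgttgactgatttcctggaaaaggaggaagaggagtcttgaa
ORC2 other probe: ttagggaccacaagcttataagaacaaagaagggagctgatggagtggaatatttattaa

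Loaded rings are turned into working helicases by CDC45 and the GINS complex, with MCM10 needed for the step, and 2 of these 5 genes rose. *GINS1*, a subunit of GINS, had log2 ratios of 0.54, 0.26, 0.14 and 0.59 and a mean of 0.39 ± 0.22 (SD, *n* 4), limma adjusted p 0.032. *MCM10* had 0.25, 0.39, 0.24 and 0.62 and a mean of 0.37 ± 0.18, adjusted p 0.025. In both, array 4 was the highest and array 3 the lowest, with every array above 0. *GINS3*, another GINS subunit, was the lowest of the group at -0.12, 0.19, 0.31 and 0.34, adjusted p 0.195, and here array 1 and not array 3 was lowest. This value on array 1 was not shared by the 4 other probes of *GINS3*, which have at least 57 of 60 bases in common with it and read 0.10, 0.23, 0.18 and 0.10 there. The control intensity of the probe used was 246 on array 1 and 52.9, 89.1 and 55.9 on arrays 2 to 4, and the cause was not tested. *GINS2* and *CDC45* both had means of 0.27, and *GINS2* just missed the threshold at an adjusted p of 0.0503 against 0.151 for *CDC45*. *GINS1* lost its call without array 1, 2 or 4, at adjusted p 0.0879, 0.0791 and 0.0763, and *MCM10* without array 2 or 3, at 0.0968 and 0.0613.

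The highest mean of all 42 genes was that of *RFC3*, a small subunit of the clamp loader, which places the sliding clamp PCNA on DNA. Its ratios were 0.38, 0.56, 0.31 and 1.01, with a mean of 0.56 ± 0.31 (SD, *n* 4) or 1.48-fold, limma adjusted p 0.0228. *RFC4*, another small subunit, followed with 0.26, 0.55, 0.25 and 0.96 and a mean of 0.51 ± 0.34 or 1.42-fold, adjusted p 0.0361. Array 4 was the highest in both genes. The rest of the loader and the clamp did not pass. *RFC1*, the large subunit, had the lowest mean of the group at 0.21, 0.19, 0.079 and -0.065 on arrays 1 to 4, adjusted p 0.329, and here array 4 was lowest. *RFC5* and *RFC2* had means of 0.20 and 0.17 and the same adjusted p of 0.133, and *PCNA* itself had a mean of 0.26 at 0.0813. Without array 2 the adjusted p of *RFC3* was 0.0745, and it stayed at or under 0.0482 without any other array. *RFC4* missed the threshold without array 1, 2 or 3, at 0.0556, 0.111 and 0.0609. The single probe of *RFC3*, the largest rise, is at chr17:12851390-12851449 on the plus strand of EquCab1, in ENSECAT00000023000.
RFC3 probe: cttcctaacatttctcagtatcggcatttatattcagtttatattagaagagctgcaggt

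The 3 probes of *PCNA* gave the widest range of any gene here, with means of 0.26, 0.12 and 0.036. The probe used for the gene had 0.30, 0.41, -0.037 and 0.38, and the lowest probe, placed beyond the other 2 at chr22:17972452-17972513 (EquCab1, plus strand), had -0.13, -0.16, -0.22 and 0.65. In that probe array 4 alone was above 0, and its limma adjusted p was 0.88.

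Replication protein A, which coats single-stranded DNA at the fork, has 3 subunits, and none passed through the probe used for the gene. At an unadjusted limma p under 0.05 there was 1 of the 3, against 3778 of 9858 genes in all. *RPA3*, the smallest subunit, had the highest mean, with 0.082, 0.26, 0.37 and 0.74 on arrays 1 to 4, a mean of 0.36 ± 0.28 (SD, *n* 4) and a limma adjusted p of 0.0608. *RPA1*, the large subunit that binds DNA, had the lowest, with 0.22, 0.099, -0.059 and 0.28 and an adjusted p of 0.24. *RPA2* had a mean of 0.16 at an adjusted p of 0.211. *RPA3* was 1 of the few genes in which array 1, not array 3, was lowest.

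A further probe of *RPA3* passed, at 0.11, 0.33, 0.40 and 0.80 and a limma adjusted p of 0.0459, which is why the pair is printed. The probes share 20 bases, given in capitals, at the end of the passing probe and the start of the probe used for the gene. They lie on the minus strand of EquCab1 at chr4:40914458-40914517 and chr4:40914418-40914477, in ENSECAT00000007841. Their means were 0.41 ± 0.29 and 0.36 ± 0.28. The passing probe was higher on every array, and the difference was not tested.
RPA3 passing probe: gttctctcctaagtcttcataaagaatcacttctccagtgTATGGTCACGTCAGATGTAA
RPA3 probe used: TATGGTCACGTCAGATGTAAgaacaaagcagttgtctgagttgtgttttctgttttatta

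Among 6 tested genes of the polymerases and primase, 2 rose. *POLA2*, a regulatory subunit of polymerase alpha, which with primase starts new strands, had 0.54, 0.45, 0.0021 and 0.76, a mean of 0.44 ± 0.32 (SD, *n* 4) or 1.36-fold, limma adjusted p 0.0477. *POLD1*, the catalytic subunit of polymerase delta, had 0.23, 0.29, 0.16 and 0.57, a mean of 0.31 ± 0.18 and an adjusted p of 0.042. Array 3 was close to 0 for *POLA2* and further above 0 for *POLD1*. *POLD3*, an accessory subunit of the same polymerase, was the lowest of the group at 0.085, 0.21, 0.046 and 0.47, adjusted p 0.138. *PRIM1*, the catalytic primase subunit, had a mean of 0.31 at an adjusted p of 0.0892. *POLE*, the catalytic subunit of polymerase epsilon, had the widest spread between arrays of all 42 genes, from -0.24 on array 3 to 0.74 on array 4, adjusted p 0.244. It was also among the dimmest of these genes, with control intensities of 26.8, 30.9, 45.3 and 47.9 on arrays 1 to 4. *POLA2* lost its call without array 1, 2 or 4, at 0.126, 0.134 and 0.113. *POLD1* lost it whichever array was left out, at 0.0737, 0.133, 0.0797 and 0.0663.

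*POLE2*, an accessory subunit of polymerase epsilon, is the remaining gene whose probes differed in the call. The probe used had a mean of 0.36 ± 0.29 (SD, *n* 4), limma adjusted p 0.0659, and spans chr1:177504993-177506763 on the minus strand of EquCab1. Next to it, chr1:177502236-177504992, the other probe had 0.28, 0.48, 0.20 and 0.87 on arrays 1 to 4 and passed with a mean of 0.46 ± 0.30, adjusted p 0.0375. On both, the order of the arrays was the same, with array 3 lowest and array 4 highest.
POLE2 probe used: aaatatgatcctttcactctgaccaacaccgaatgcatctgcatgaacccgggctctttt
POLE2 passing probe: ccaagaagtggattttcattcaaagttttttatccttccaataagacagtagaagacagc

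In all, 21 genes had more than 1 tested probe, 55 probes together. The range between the mean ratios of a gene's probes had a median of 0.074 and was widest in *PCNA*, at 0.23. The call differed between probes in 3 genes and the sign in 1. Probes of 10 of these genes overlap by at least 10 bases, as the 5 probes of *MCM2* and of *GINS3* do, so that they are not separate measurements. Over all 76 probes, 75 had a mean above 0 and 11 passed, 14.5%, against 22.8% of all tested probes.

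**Figure D2:**
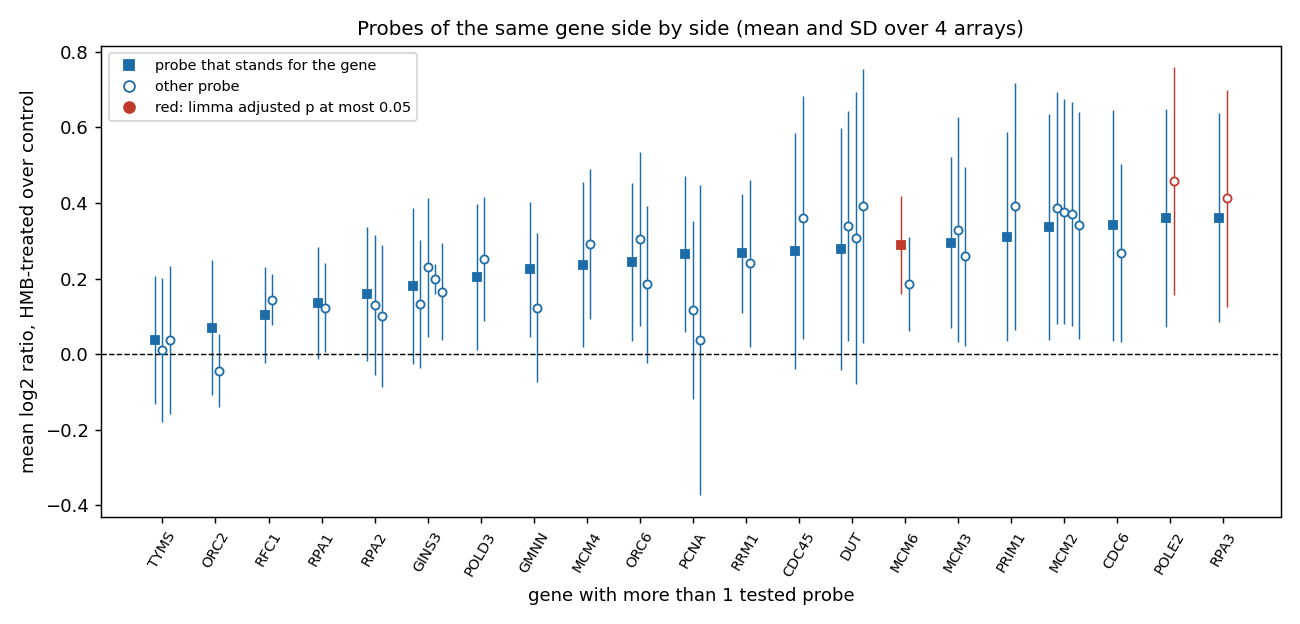
Mean log2 ratio of HMB-treated over control cells (y axis) for every tested probe of the 21 genes with more than 1 (x axis), with bars for the SD over 4 arrays. Filled squares are the probes that stand for a gene, open circles the others, and red marks the limma adjusted p of at most 0.05, seen for 1 of the probes of *MCM6*, *POLE2* and *RPA3*.

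Okazaki fragments are trimmed by the flap endonuclease FEN1 and sealed by DNA ligase LIG1. *FEN1* had 0.52, 0.19, 0.016 and 0.72 on arrays 1 to 4, a mean of 0.36 ± 0.32 (SD, *n* 4), and *LIG1* had 0.42, 0.20, 0.013 and 0.59, a mean of 0.31 ± 0.25. Both followed the same order of arrays, from array 3 near 0 to array 4. Neither passed, at limma adjusted p 0.0803 and 0.0789. Both had an unadjusted p under 0.05, as had 3778 of 9858 genes in all.

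For nucleotide supply, none of 5 genes passed the limma threshold. At an unadjusted p under 0.05 there were 2 of the 5, against 3778 of 9858 genes in all. *RRM2*, the small subunit of ribonucleotide reductase, had the highest mean, with 0.32, 0.37, -0.057 and 0.76, a mean of 0.35 ± 0.33 (SD, *n* 4) and an adjusted p of 0.099. *TYMS*, thymidylate synthase, was the lowest at 0.13, 0.079, -0.21 and 0.16, a mean of 0.037 ± 0.17, adjusted p 0.766. *RRM1*, the large reductase subunit, came closest to the threshold, with a mean of 0.27 ± 0.16 and an adjusted p of 0.0539. *DUT*, which destroys dUTP, and *TK1*, which salvages thymidine, had means of 0.28 and 0.24 at adjusted p 0.152 and 0.173. On array 3 only *RRM1* was above 0 among these 5 genes.

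*UHRF1*, which guides maintenance DNA methylation behind the fork, had 0.41, 0.50, -0.047 and 0.66, a mean of 0.38 ± 0.30 (SD, *n* 4), and missed the threshold at a limma adjusted p of 0.0639. It passed without array 3, at 0.0278, but not without array 1, 2 or 4, at 0.143, 0.195 and 0.158.

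The regulators that start S phase were the lowest group. *E2F1* and *E2F2* are transcription factors of replication genes, and cyclin E, encoded by *CCNE1*, activates CDK2 at the start of S phase. *E2F1* had log2 ratios of 0.25, 0.097, -0.16 and 0.21, *E2F2* had 0.13, -0.14, -0.22 and 0.27, and *CCNE1* had a mean of 0.026. The 3 limma adjusted p were 0.421, 0.943 and 0.837. An unadjusted p under 0.05 was found in 0 of the 3 genes, against 3778 of 9858 genes in all. Arrays 1 and 4 were above 0 and array 3 below 0 for each of them. *CCNE2* was well above background on 2 of 4 arrays in control cells and on 3 of 4 in HMB-treated cells, and was not tested.

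Other genes of the same pathways were taken from a list of 65 symbols, of which 58 were tested. Of these, 14 were higher and 1 was lower at a limma adjusted p of at most 0.05, against 11.4% and 11.2% of all genes, and the median log2 ratio was 0.21. Among replication factors, 9 of 25 rose and 0 fell. Lower at an unadjusted p under 0.05 were also 0 of the 25, against 1709 of 9858 genes in all. *RNASEH2C*, a subunit of the nuclease that removes RNA from DNA, had 0.53, 0.47, 0.49 and 0.60, a mean of 0.52 ± 0.057 (SD, *n* 4) and an adjusted p of 0.0039, and no array stood apart. *ASF1B*, a histone chaperone, had 0.93, 0.31, 0.29 and 0.53, adjusted p 0.0257. *TIMELESS*, which protects the fork, had 0.57, 0.54, 0.22 and 0.68, adjusted p 0.0129, and *DBF4*, which activates the kinase that switches on the helicase, had 0.37, 0.50, 0.27 and 0.82, adjusted p 0.0196. All of these were above 0 on every array.

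Of 24 further genes of nucleotide supply, 5 rose and 1 fell. *CAD*, which catalyses the first steps of pyrimidine synthesis, had 0.65, 0.31, 0.35 and 0.75, a mean of 0.51 ± 0.22 (SD, *n* 4), limma adjusted p 0.0147. *RRM2B*, a ribonucleotide reductase subunit used outside S phase and regulated by p53, was the gene that fell, with -0.34, -0.16, -0.19 and -0.23, a mean of -0.23 ± 0.081, adjusted p 0.0439. It was below 0 on all 4 arrays, and *CAD* above 0 on all 4. None of 9 further E2F and G1/S genes passed. At an unadjusted p under 0.05 there were 3 of the 9, against 3778 of 9858 genes in all. Without array 1, 2, 3 or 4, the 15 genes past the threshold in the whole list became 9, 4, 8 and 9, and with an added minimum of 1.3-fold 9. With separate channels, a t-test on each probe alone or no filter on dim probes they became 2, 2 and 5. Counts over all genes in these runs are given further below.

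Mitosis genes are the closest neighbours of the replication genes in the cell cycle. Of 26 tested, 19 were higher and 0 lower at a limma adjusted p of at most 0.05, against 11.4% and 11.2% of all genes. At an unadjusted p under 0.05 there were 23 of the 26, against 3778 of 9858 genes in all. The median log2 ratio of the 26 genes was 0.49. *CCNA2*, cyclin A, which acts in S phase and before mitosis, had 0.89, 0.82, 0.35 and 0.98, adjusted p 0.00766. *MKI67*, the proliferation marker Ki-67, had 0.73, 0.70, 0.25 and 1.21, adjusted p 0.0189, and *CCNB1*, cyclin B, had 0.91, 0.78, 0.24 and 0.87, adjusted p 0.0123. Array 3 was the lowest in 25 of the 26 genes, as in 38 of the 42 replication genes. The medians of the mitosis list were 0.68, 0.53, 0.15 and 0.69 on arrays 1 to 4. The difference between the lists was not tested. Without array 1, 2, 3 or 4 the 19 became 6, 6, 22 and 10. Of all genes, 1686 of 9944, 881 of 9920, 963 of 9913 and 1719 of 10074 passed in those runs. With separate channels, a t-test on each probe alone or no filter on dim probes the 19 became 0, 0 and 1. The counts over all genes were 891 of 9858, 230 of 9858 and 1255 of 15084 there.

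**Figure D3:**
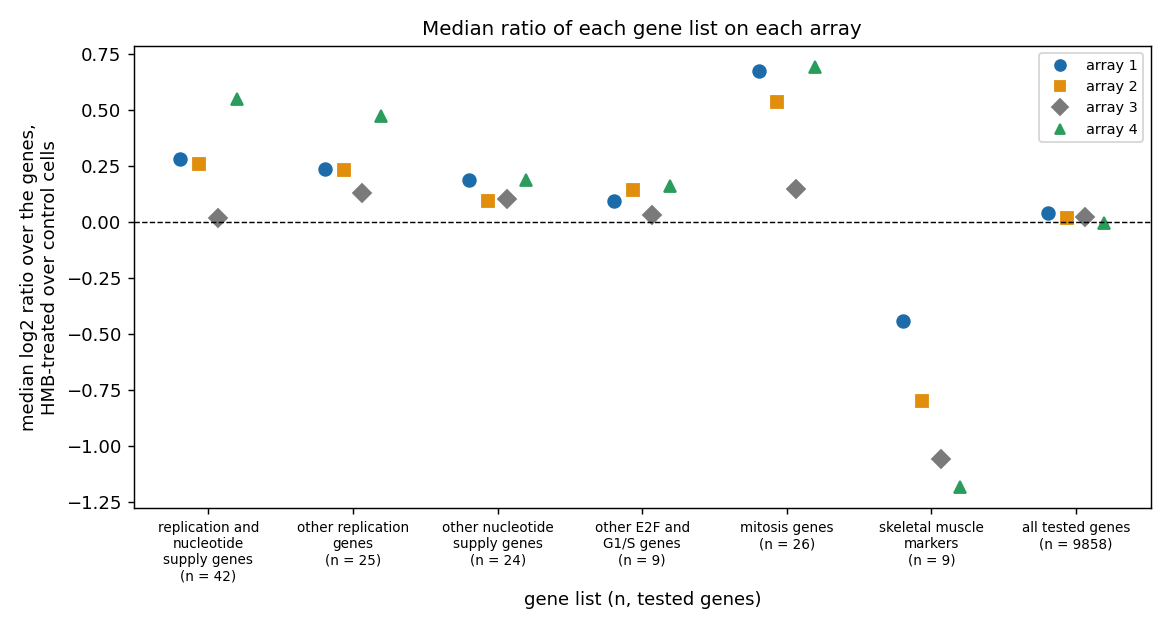
Median log2 ratio of HMB-treated over control cells (y axis) on each of the 4 arrays for each gene list (x axis, with the number of tested genes). Array 3 has the lowest median for the replication and nucleotide supply genes (0.018), the other replication genes (0.13) and the mitosis genes (0.15), while skeletal muscle markers are below 0 on every array and lowest on array 4 (-1.19).

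Markers of muscle moved the other way. All 9 tested of 12 skeletal muscle markers were lower at a limma adjusted p of at most 0.05, with a median log2 ratio of -0.90 and medians of -0.44, -0.80, -1.06 and -1.19 on arrays 1 to 4. *MYH3*, embryonic myosin heavy chain, had -0.51, -0.99, -1.38 and -1.57, adjusted p 0.00846, and *MYF5*, a myogenic transcription factor, had -0.82, -0.88, -1.17 and -1.15, adjusted p 0.00157. *MYOG*, myogenin, which drives differentiation, had -0.20, -0.31, -0.54 and -0.64, adjusted p 0.0222. Array 1 was the least lowered in each. The summed processed intensity of the 9 probes was 187237, 188340, 202066 and 209576 in control cells and 136100, 94911, 87529 and 79783 in HMB-treated cells, and the probe of highest signal was that of *MYH3*. The part of the muscle markers in the result for the replication genes was not tested.

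Markers of other cell types were read as well. Of 5 tested fibroblast markers 1 passed, *PDGFRA*, a growth factor receptor, with 1.09, 1.38, 1.46 and 2.19, a mean of 1.53 ± 0.47 (SD, *n* 4) and a limma adjusted p of 0.00358, and the median of the 5 was 0.0071. Their summed processed intensity was 175482, 170375, 185653 and 236146 in control cells and 222283, 164459, 171614 and 173418 in HMB-treated cells, with *COL3A1* of highest signal. *PDGFRA* was the dimmest of the 5, with a mean control intensity of 38.5 against 680 for *THY1*, the next. It has 2 probes, and the values are those of its tested probe of highest signal. Of 6 leukocyte markers with a probe, 2 were tested, *CD68* and *CD14*, and 0 passed. At an unadjusted p under 0.05 there was 1 of the 2, against 3778 of 9858 genes in all. The sums of these 2 markers were 5525, 4979, 4837 and 5634 in control cells and 6342, 5121, 4829 and 4990 in HMB-treated cells, with *CD14* of higher signal. *CD3E* and *ITGAM* were not well above background on any array. None of the 5 endothelial and none of the 4 adipocyte markers with a probe could be tested, and *KDR*, *PECAM1*, *TEK* and *VWF*, and *ADIPOQ*, *FABP4* and *PPARG*, were not well above background on any array. The part of these markers in the result was not tested.

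The count of 9 depended on the arrays and on the processing. Without array 1, 2, 3 or 4, 2, 0, 7 and 3 of the replication and nucleotide supply genes passed with limma, and 2, 0, 5 and 3 of the original 9 were among them. Of all tested genes, 1686 of 9944, 881 of 9920, 963 of 9913 and 1719 of 10074 passed in the same runs. The share among the replication and nucleotide supply genes (43 tested without array 2) was below this general share without array 1, 2 or 4. At an unadjusted p under 0.05 there were 17, 14, 32 and 14 of these genes, against 10701 of 27589, 7767 of 27522, 7862 of 27493 and 10087 of 28009 probes. Without lowess 17 passed, the original 9 among them, against 2655 of 9855 genes in all. The split among all probes past the threshold moved there from 3071 higher of 6257 to 4632 higher of 7830. With an added minimum of 1.3-fold 5 passed, against 1335 of 9858 genes in all. With separate channels, with a t-test on the ratios of each probe alone or with no filter on dim probes 0 passed after adjustment, and 1, 8 and 12 had an unadjusted p under 0.05. Of all genes, 891 of 9858, 230 of 9858 and 1255 of 15084 passed in these runs. Over all probes, 6930 of 27384, 8435 of 27384 and 13209 of 43603 had an unadjusted p under 0.05 there. Separate channels, the t-test, the minimum fold change and the intensity trend leave the ratios as they are, so that the median could not move there. Where arrays were left out, the median log2 ratio lay between 0.21, without array 4, and 0.37, without array 3. It was 0.23 with normexp and loess and 0.36 without lowess. With normexp and loess 6 genes passed, all among the original 9, against 2041 of 9858 genes in all. *MCM6*, *MCM7* and *POLA2* lost their calls there, at limma adjusted p 0.053, 0.0618 and 0.0685.

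**Figure D4:**
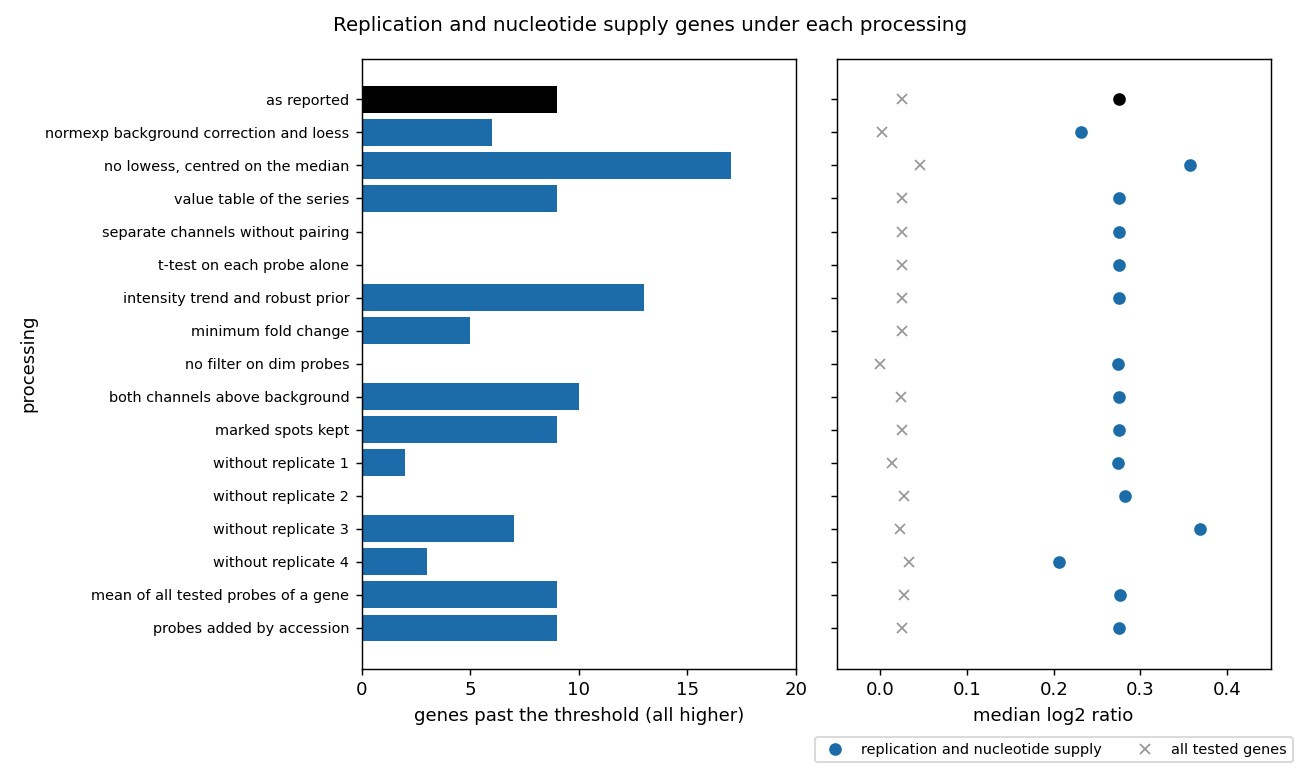
Left, number of the replication and nucleotide supply genes past the threshold under each processing (y axis), all of them higher in HMB-treated cells, and right, the median log2 ratio of these genes (circles, black as reported, from 0.21 without array 4 to 0.37 without array 3) and of all tested genes (crosses). Separate channels, the t-test, the intensity trend and the minimum fold change alter only the test and not the ratios. No circle is drawn for the minimum fold change.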

How the data were processed

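Per the file headers, the authors read the 4 arrays with Feature Extraction 10.10.1.1 (the methods name another version), with probes placed on EquCab1. In the deposited files, intensity has had background and spatial trend removed and the dyes balanced, and the authors give each ratio (Cy5 to Cy3) as log10 after linear and lowess normalisation. Ratios were multiplied by 3.32 to log2. Spots marked as poor were left out and repeated spots averaged. Probes were tested if 1 dye was well above background on each array and 3 or more arrays gave a ratio (27384 of 43603). Tests used limma 3.58.1 in R 4.3.3 (Benjamini and Hochberg over all tested probes, threshold 0.05), with summaries in Python 3.11.15. The code was tested on simulated data. The tested probe of highest signal stood for a gene. Sample descriptions call every sample GO-treated, so titles were used. Values per array are given for genes past the threshold and for the highest and lowest mean of each role, and for some genes of other lists, among them the largest changes. The genes and lists were chosen with earlier results of these data known. The number of arrays limits the precision.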

Additional observations from a re-analysis of the deposited data

Results flagged for a closer look

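Among 43 sets of 4 arrays, the 42 genes and their median, 2 had an array far from the others, and chance alone gives about 1 in 20. *GINS2* had a log2 ratio of 0.51 on array 4 (0.5094), while its other arrays lay between 0.17 and 0.22. *ORC2* had 0.33 on array 1 (0.3344), while its other arrays lay between -0.058 and 0.0084. Neither gene passed the test.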

How the results depend on the processing

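Of the 42 replication and nucleotide supply genes, 9 passed, all higher. Also past the threshold were 15 other replication and nucleotide genes (14 higher), 19 mitosis genes (19 higher) and 6257 probes (3071 higher). Values that moved by more than 1.5 times follow, and the cause was not tested.

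Without lowess, 17 of the 42 genes passed, all higher, with 7830 probes. With separate channels without pairing, 0 of the 42 passed, with 2 of the other genes, 0 mitosis genes and 2572 probes. With a t-test on the ratios of each probe alone the counts were 0, 2 and 0, with 768 probes. With a minimum fold change they were 5 and 9, with 3863 probes. With no filter on dim probes they were 0 (of 43 genes), 5 and 1, with 3690 probes.

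Leaving out 1 array gave 0 to 7 of the replication and nucleotide supply genes, all higher, with 43 tested without array 2 and 42 otherwise. Of the other genes 4 to 9 passed, with 6 to 22 mitosis genes and 2573 to 4957 probes. The median log2 ratio of the tested replication and nucleotide supply genes was 0.21 to 0.37 in these runs.

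Signal over background limits the size of ratios of dim probes. Its median per array was 3.16 to 3.82 in control and 4.68 to 5.85 in HMB-treated cells.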
